A study of Homo sapiens with 6 samples.

Results

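The genes described are 8 that repair or process DNA damaged by methylating agents: the direct-reversal enzymes MGMT and ALKBH2, the mismatch repair subunits MSH6 and PMS2, the base excision repair proteins MPG, APEX1 and XRCC1, and the strand-break sensor PARP1. They were chosen by symbol, as the genes held to set the response of T98G cells to temozolomide. No rule on measured values was used, though earlier results of these data were known. All 8 are among the 23026 genes of the authors' normalized table. The study infected T98G, a human glioblastoma cell line, with a lentivirus carrying a control hairpin (shControl, 3 libraries) or a hairpin against the kinase DYRK1A (shDYRK1A, 3 libraries), named 1A, 1B and 1C in each group. All 6 cultures were T98G, all were selected with puromycin and then left to recover without it, and the labels list no alkylating drug for any sample. RNA from the infected population was sequenced, with a fixed number of Drosophila Kc167 cells mixed into equal numbers of T98G cells as an external scale. The labels name a single shDYRK1A construct, so an effect of that hairpin on other transcripts and an effect of DYRK1A cannot be told apart. The labels do not say whether libraries of a group came from separate infections, so the p-values measure the spread between these libraries, which may be technical.

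Temozolomide and related drugs add methyl groups to DNA bases. MGMT takes the methyl group from the O6 position of guanine onto itself and is used up by doing so, and in glioblastoma methylation of its promoter marks tumours that respond better to the drug. O6-methylguanine that is left pairs with thymine, and the mismatch is bound by a protein dimer that holds MSH6, which calls in another that holds PMS2. Repeated rounds of this repair opposite a lesion that stays in the template are toxic to the cell, so that mismatch repair is needed for the drug to kill. Methylated adenine and N7-methylguanine are instead removed by the glycosylase MPG, and APEX1, XRCC1 with its ligase LIG3, and PARP1 act on the abasic site and the nick that follow. ALKBH2 strips methyl groups from the pairing face of adenine and cytosine by oxidation.

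Promoters are shown first, that of MGMT because it is rich in CpG and is the one whose methylation is followed in tumours, and those of MSH6 and PMS2 because they alone among the 8 held a form of the E2F site. Sequences are from RefSeq on GRCh38.p14, which matched all 8 symbols, and each window runs from 250 bases before to 50 bases after an annotated start. Capitals mark, on either strand, the GC box GGGCGG, the CCAAT box, and the words TTTCCCGC, TTTGGCGC, TTTCGCGC and TTTGCCGC, which are forms of the E2F site. MSH6 has 4 annotated windows and PMS2 has 2, and the first listed is printed for each.
MGMT, chr10:129466991-129467290, plus strand: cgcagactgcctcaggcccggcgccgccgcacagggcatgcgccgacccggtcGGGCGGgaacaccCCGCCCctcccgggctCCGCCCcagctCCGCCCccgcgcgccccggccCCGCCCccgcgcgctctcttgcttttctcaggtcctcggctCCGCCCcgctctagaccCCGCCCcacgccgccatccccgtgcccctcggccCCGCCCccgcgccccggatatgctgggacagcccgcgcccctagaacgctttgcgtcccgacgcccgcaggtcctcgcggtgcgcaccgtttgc
MSH6, chr2:47782895-47783194, plus strand: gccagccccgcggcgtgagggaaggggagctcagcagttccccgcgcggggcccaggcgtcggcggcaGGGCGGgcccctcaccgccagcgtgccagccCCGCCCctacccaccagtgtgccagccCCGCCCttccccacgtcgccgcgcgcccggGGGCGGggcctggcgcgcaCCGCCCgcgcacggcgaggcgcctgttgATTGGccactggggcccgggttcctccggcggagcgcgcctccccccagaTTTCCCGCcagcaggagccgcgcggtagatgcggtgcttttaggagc
PMS2, chr7:6009057-6009356, minus strand: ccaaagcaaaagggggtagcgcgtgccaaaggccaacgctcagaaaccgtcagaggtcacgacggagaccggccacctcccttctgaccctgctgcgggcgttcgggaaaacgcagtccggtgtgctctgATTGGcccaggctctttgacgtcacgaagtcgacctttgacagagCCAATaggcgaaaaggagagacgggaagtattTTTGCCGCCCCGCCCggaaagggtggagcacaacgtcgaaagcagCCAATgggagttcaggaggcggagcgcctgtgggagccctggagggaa
The MGMT window held 8 GC boxes, no CCAAT box and none of the E2F words. It had 45 CpG dinucleotides and a GC content of 78.7%, against a median of 14 CpG (quartiles 3 and 28) and 58.3% GC over 27305 promoters. The richness in CpG was not particular to MGMT. The printed MSH6 window had 39 CpG and 78.0% GC, and that of MPG 34 CpG and 77.0% GC. The fewest CpG among the 8 genes were those of APEX1, 19, which is also above that median. The MSH6 window held an E2F word whose first base lies 4 bases into the transcript, 5 GC boxes and a CCAAT box. In the PMS2 window an E2F word began 43 bases before the start and ran into a GC box, and there were 3 CCAAT boxes. An E2F word was found in 3.33% of all promoters of this length, and among the 8 genes only in MSH6 and PMS2. A GC box was found in 44.6% of all promoters and in 7 of the 8 genes, APEX1 being the exception. The CCAAT box was in 35.7% of all promoters and, among the 8 genes, in MSH6, PMS2, MPG, APEX1 and XRCC1. DYRK1A is known to be recruited to chromatin at promoters with a palindrome. This palindrome, TCTCGCGAGA, was found in none of the windows of the 8 genes; 0.469% of all promoters hold it. These are matches of letters in a reference window, and whether any factor was bound there was not measured here.

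The libraries held between 33708297 and 42154438 reads assigned to genes. Values called normalized counts are raw counts divided by the size factor that the authors took from the fly reads (0.821 to 1.21). On this scale the median log2 fold change over the 9697 genes tested, shDYRK1A against shControl, was −0.40. The second scale used below, TMM, takes its factors from the human genes themselves, so that the median was 0.00 and a difference is one relative to all human genes; its levels are given as CPM, counts scaled to a common library total. In bulk RNA a change in cell number, in RNA per cell and in the share of cells in a given state cannot be told apart. DYRK1A, the target, fell from normalized counts of 2227, 2234 and 1895 to 1482, 1056 and 1285 after silencing, a log2 fold change of −0.73 ± 0.15 (SE, adjusted p = 5.3e-06) with no overlap between groups. Of the genes tested, 11.8% fell further on this scale. By TMM the fold change of DYRK1A was −0.34 ± 0.06 (SE, edgeR, adjusted p = 0.00059). Of 8 markers of glioblastoma and neural stem cells, VIM, CD44 and EGFR passed the filter on low counts, NES and OLIG2 were under it, and SOX2, GFAP and S100B had 10 or fewer reads over all libraries together. Of the 4 endothelial and 4 immune markers, 0 passed the filter. Of the 4 neuronal markers only MAP2 passed; the summed normalized count of this list was between 1921 and 2365 in shControl and between 717 and 922 in shDYRK1A, and its part in the results below was not tested.

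All 8 repair genes passed the filter. With the spike-in scale 6 of them were lower in shDYRK1A at an adjusted p below 0.05 (edgeR), and 0 were higher, all 8 fold changes being negative; DESeq2 gave the same counts. Over all genes tested 63.4% were lower and 1.08% higher by this rule, so the share of the 8 that fell lay near that of the transcriptome. MSH6, XRCC1 and PARP1 also passed the fold threshold of 0.7 on the log2 scale, which 14.3% of tested genes passed downward. In 7 of the 8, every shDYRK1A library lay below every shControl library, as it did in 63.6% of genes tested. Relative to all human genes MSH6, XRCC1 and PARP1 fell and MPG rose, against backgrounds of 28.6% lower and 27.3% higher, and the other 4 did not pass. None of the 8 passed the fold threshold on that scale, which 1.93% of tested genes did downward and 1.25% upward. By TMM-scaled CPM every shDYRK1A library lay below every shControl library for 5 of the 8 and above for 2 (MPG and, barely, MGMT), against 32.7% and 30.4% of genes tested. The median log2 fold change of the 8 was −0.51 with the spike-in and −0.11 relative to all human genes. The library shDYRK1A 1B held the lowest normalized count of 6 of the 8, MGMT and MPG being the exceptions. The share of all genes that were lowest in this library was not counted. Its reads assigned to genes, divided by its size factor, were also the fewest, 31230657 against 33310112 to 48090252 in the others. This library also had the fewest reads assigned to genes (33708297) and the largest share of unmapped reads, 15.65% against 8.44 to 11.92% in the others, and the part of this in its values was not tested.

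**Figure D1:**
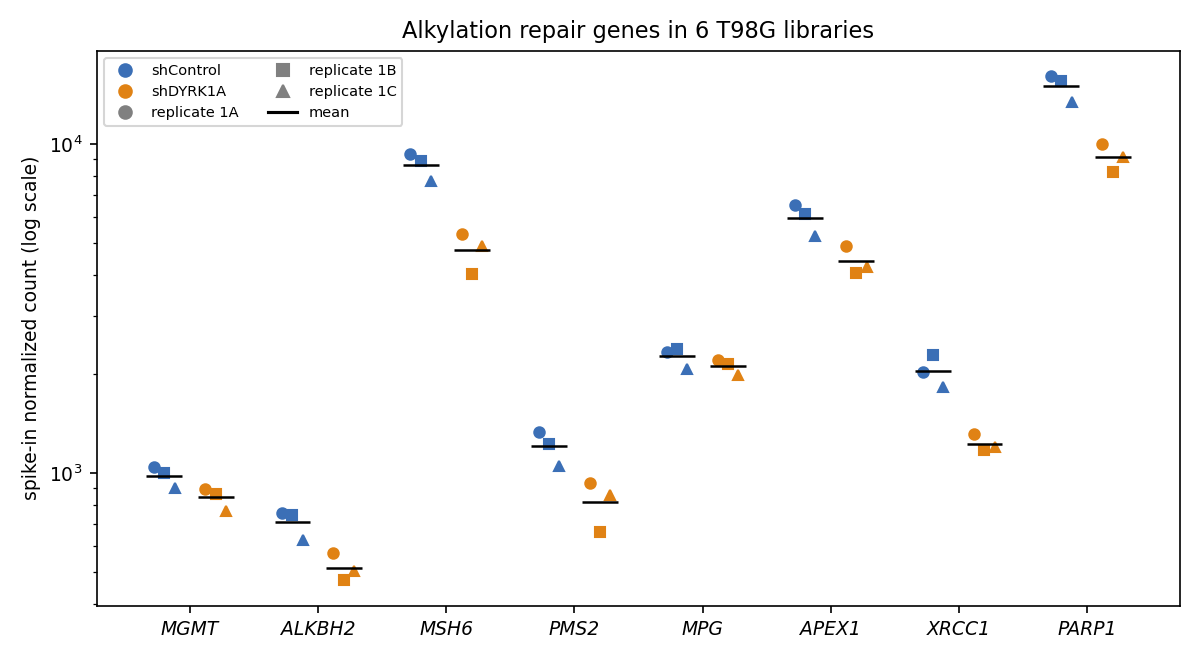
Spike-in normalized counts (log axis) of the 8 repair genes in 6 libraries, blue for shControl and orange for shDYRK1A, with the shape giving the replicate letter and a bar the mean of 3. The groups are well apart for MSH6 (shControl 7725 or more, shDYRK1A 5323 or less), close for MGMT, and overlapping for MPG.

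MGMT (ENSG00000170430, GRCh38 chromosome 10, 129467184 to 129768007, plus strand, protein coding) is a long gene of 300.8 kb with 3557 bases of exon. Normalized counts of MGMT were 1043, 999 and 904 in the shControl libraries, against 898, 863 and 768 after DYRK1A silencing (1A, 1B and 1C in order, here and below). Each shDYRK1A library was below each shControl library, though shControl 1C and shDYRK1A 1A lay almost level. The group means were 982 ± 71.4 and 843 ± 67.0 (SD, n = 3), a log2 fold change of −0.22 ± 0.15 (SE, 95% interval −0.52 to 0.08, adjusted p = 0.19). The transcript level on the spike-in scale was thus not shown to change, and 76.4% of the tested genes had a lower fold change than MGMT. On the TMM scale the level was 21.9, 21.0 and 22.7 CPM in shControl and 24.0, 28.1 and 22.7 CPM in shDYRK1A. The highest shControl and the lowest shDYRK1A library had about the same value, and shDYRK1A 1B stood above the rest. The log2 fold change on that scale was 0.19 ± 0.08 (SE, 95% interval 0.01 to 0.36, adjusted p = 0.063); it was 0.09 without shDYRK1A 1B and 0.25, with an adjusted p of 0.021, without shDYRK1A 1C. The direction of the MGMT fold change therefore depended on the scale, and on neither did all 6 libraries give a difference past the threshold.

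Among the 5 genes whose log2 CPM followed that of MGMT most closely over the 6 libraries were MRPS18A (Pearson r = 0.994), POLR2G (0.994), GTF3C5 (0.993) and TRAP1 (0.992). MRPS18A is a protein of the mitochondrial ribosome, POLR2G is a subunit of RNA polymerase II and GTF3C5 one of a factor for RNA polymerase III, and TRAP1 is a mitochondrial chaperone. These correlations are descriptions over 6 libraries that share their group structure, and 114 genes reached an r above 0.95. MGMT itself was highest in shDYRK1A 1B, at 28.1 CPM against 21.0 to 24.0 CPM in the others. The part of that library in these correlations was not tested. The log2 fold changes of these 4 lay between −0.33 and −0.25 with the spike-in, all above the transcriptome median of −0.40.

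ALKBH2 (ENSG00000189046, chromosome 12, 109088188 to 109093631, minus strand) was the least counted of the 8. The shControl libraries held 758, 744 and 626 normalized counts and the shDYRK1A libraries 572, 472 and 502. The groups did not overlap, and shControl 1C came nearest to shDYRK1A. The log2 fold change was −0.46 ± 0.16 (SE, adjusted p = 0.0091), close to the median of all genes, and relative to all human genes it was −0.06 ± 0.06 (SE, 95% interval −0.20 to 0.08, adjusted p = 0.47). The spike-in call was lost when shControl 1A (adjusted p = 0.081), shControl 1B (0.059) or shDYRK1A 1C (0.070) was left out. In CPM the gene stood at 15.7 to 15.9 in shControl and 14.8 to 15.3 in shDYRK1A.

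Of the 7 genes listed for direct reversal, 3 were lower with the spike-in (ALKBH1, ALKBH2 and ASCC3), against 63.4% of all genes tested, and 0 were higher, also at an unadjusted p below 0.05. By TMM, 3 were higher and 0 lower by the adjusted p, against 27.3% and 28.6% of genes tested, and 4 were higher and 1 lower by the unadjusted p. The shares of all genes by the unadjusted p were not counted, here or for the lists below. Those that rose on that scale were ALKBH3, an oxidative demethylase that prefers single-stranded nucleic acid (log2 fold change 0.25 ± 0.07, adjusted p = 0.011), and ASCC1 (0.25 ± 0.06, adjusted p = 0.0025) and ASCC2 (0.21 ± 0.04, adjusted p = 0.0013), subunits of the complex that brings ALKBH3 to alkylated DNA. The same genes had log2 fold changes of −0.16, −0.15 and −0.19 with the spike-in, none of which passed, so their direction also depended on the scale. ASCC3, the helicase of that complex, had the lowest spike-in value of the list, −0.58 ± 0.14, and was at −0.18 (adjusted p = 0.063) relative to all human genes.

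MSH6 (ENSG00000116062, chromosome 2, 47695530 to 47810101, plus strand, 10993 bases of exon) fell most of the 8 on both scales. The shControl libraries gave 9358, 8916 and 7725 normalized counts, those with shDYRK1A 5323, 4027 and 4924. The groups lay far apart relative to their spread, and the shDYRK1A mean was 54.9% of the shControl mean. The log2 fold change was −0.86 ± 0.14 (SE, 95% interval −1.13 to −0.60, adjusted p = 3.9e-09), and only 6.03% of tested genes fell further. The TMM scale gave a fold change of −0.46 ± 0.05 (SE, adjusted p = 1.2e-05), from 188 to 197 CPM in shControl to 131 to 145 CPM in shDYRK1A. With each library left out in turn it stayed between −0.95 and −0.76 with the spike-in and between −0.50 and −0.42 relative to all human genes, past the test each time. Of its exon bases 16.2% lie opposite FBXO11 on the other strand, and since the setting of the counter for strand was not given in the sources used here, a share of reads from FBXO11 cannot be told apart.

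PMS2 (ENSG00000122512, chromosome 7, 5973239 to 6009125, minus strand) carries the endonuclease of mismatch repair. It had 1335, 1228 and 1053 normalized counts with shControl, against 932, 663 and 861 with shDYRK1A. The groups did not overlap and shDYRK1A 1B was the lowest library. The log2 fold change was −0.56 ± 0.15 (SE, adjusted p = 0.00089), and −0.16 ± 0.07 (SE, 95% interval −0.31 to −0.0015, adjusted p = 0.079) relative to all human genes. PMS2 has near-identical pseudogenes, and reads that fit more than 1 place were set aside by the counter, so its level is uncertain. The 11 annotated copies, PMS2CL and those named PMS2P with a number, summed to normalized counts of 1773 to 2217 in shControl and 1624 to 1961 in shDYRK1A, more than PMS2 itself in every library, and the groups overlapped. Without the filter, 9 of them had enough reads to be fitted, and 0 passed the test of edgeR at an adjusted or at an unadjusted p below 0.05. Their log2 fold changes ran from −0.86 (a copy with 5 to 16 reads a library) to 0.03 (19 to 41 reads). The means of the sum were 2039 in shControl and 1756 in shDYRK1A. The lack of a call does not show that the copies kept their level or differed from PMS2.

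The 6 genes listed for mismatch recognition and strand excision all had negative fold changes with the spike-in, as did 9077 of the 9697 genes tested, and 5 passed as lower, against 63.4% of genes tested. EXO1, the exonuclease that removes the strand holding the error, fell most (log2 fold change −1.05 ± 0.14, adjusted p = 8.6e-12), followed by MSH6. MLH3, a subunit used mostly in meiosis, was highest, at −0.32 ± 0.15 (adjusted p = 0.062). MSH3, which takes the place of MSH6 in the dimer that reads larger loops, was at −0.54 ± 0.15 (adjusted p = 0.0013). With TMM scaling 2 of the 6 fell (28.6% of genes tested did), namely EXO1 (−0.65) and MSH6 (−0.46), and 0 rose at an adjusted or unadjusted p below 0.05. By the unadjusted p 4 of the 6 fell. MSH3 stood at −0.13 ± 0.06 (SE, adjusted p = 0.074) on that scale.

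Factors that resynthesize the excised strand, shared with DNA replication, were lower in 13 of 13 genes past the filter with the spike-in (median log2 fold change −0.77) and in 10 of 13 relative to all human genes (median −0.37), against 63.4% and 28.6% of all genes tested; POLD4 was under the filter. RFC3, a subunit of the loader of the PCNA clamp, had the lowest value (−1.53 ± 0.15, adjusted p = 1.2e-22), and POLD2, a subunit of polymerase delta, the highest (−0.34 ± 0.13, adjusted p = 0.019). Beyond the fold threshold were also PCNA, the clamp itself (−1.02), POLD3 (−0.97) and POLD1 (−0.78) of polymerase delta, RPA2 (−0.95) and RPA1 (−0.77), which coat single strands, and RFC4 (−0.84). Many of these genes are known for their expression in S phase, as are MSH6, EXO1, UNG and FEN1. Of 35 S phase genes that are on none of the repair lists, 35 were lower with the spike-in and 34 relative to all human genes, against 63.4% and 28.6% of all genes tested (median log2 fold changes −0.92 and −0.51), from GMNN, the inhibitor of licensing (−1.48 with the spike-in), to UBR7 (−0.45). Their summed level was 3839 to 3996 CPM in shControl and 2824 to 2854 CPM in shDYRK1A, without overlap. The part of cell cycle distribution in the values of MSH6, PARP1 and XRCC1 was not tested.

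MPG (ENSG00000103152, chromosome 16, 77007 to 85853, plus strand) opens base excision repair by cutting out alkylated purines, and was the least changed of the 8 with the spike-in. Normalized counts of 2335, 2392 and 2080 with shControl stood against 2213, 2144 and 1989 with shDYRK1A. The groups overlapped, the log2 fold change being −0.10 ± 0.14 (SE, 95% interval −0.38 to 0.18, adjusted p = 0.53). Against all human genes MPG rose, from 49.1, 50.4 and 52.2 CPM in shControl to 59.0, 69.7 and 58.7 CPM in shDYRK1A. On that scale no library overlapped, shDYRK1A 1B was again the highest, and the fold change was 0.31 ± 0.07 (SE, adjusted p = 0.0024), or 0.22 without shDYRK1A 1B. Of its exon bases 27.3% lie opposite NPRL3, whose reads cannot be told apart for the same reason as at MSH6.

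**Figure D2:**
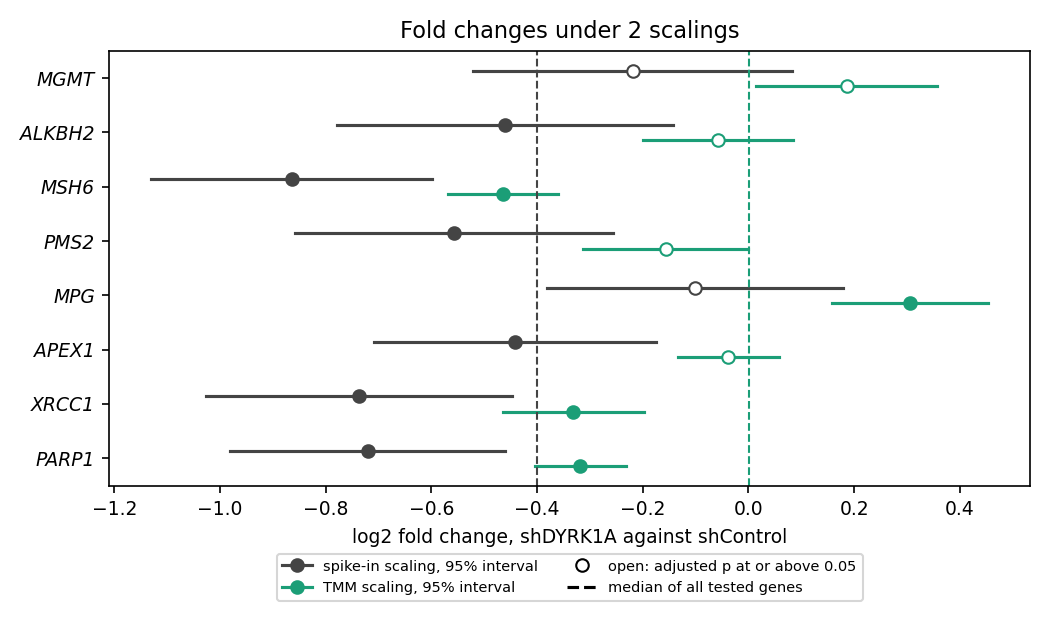
Log2 fold changes of the 8 repair genes, shDYRK1A against shControl, with 95% intervals from edgeR over 3 against 3 libraries, grey on the spike-in scale and green on the TMM scale; open points did not pass an adjusted p of 0.05 and dashed lines mark the median of 9697 genes (−0.40 and 0.00). MSH6, XRCC1 and PARP1 are filled on both scales, MPG only on the TMM scale, and MGMT on neither.

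The other DNA glycosylases differed widely among themselves. Of 10 past the filter, 6 were lower with the spike-in by the adjusted p and 7 by the unadjusted p, and 0 were higher by either (median log2 fold change −0.44), NEIL1 being under the filter. The count of 6 lay near the 63.4% of all genes tested that were lower. UNG, which removes uracil, fell to 41.8% of its shControl level (log2 fold change −1.26 ± 0.15, adjusted p = 6.9e-16), and NEIL3, which acts on oxidized bases and on crosslinks in single-stranded DNA, to 42.5% (−1.23 ± 0.14, adjusted p = 6.2e-16). MPG had the highest value of the list. On the TMM scale, where 28.6% of genes tested were lower and 27.3% higher, 3 were lower, UNG (−0.85), NEIL3 (−0.83) and the mismatch-specific thymine glycosylase MBD4 (−0.19, adjusted p = 0.013), and 3 were higher, MPG, the uracil glycosylase SMUG1 (0.18, adjusted p = 0.036) and NEIL2 (0.23, adjusted p = 0.0080). MBD4, SMUG1 and NEIL2 here, and ALKBH1 and ASCC2 above, were named after their values were seen. UNG lies beside ALKBH2 on chromosome 12, at 109097574 to 109110992 on the plus strand, and the genes start in opposite directions.

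APEX1 (ENSG00000100823, chromosome 14, 20455191 to 20457772, plus strand) cuts the backbone at the abasic site that a glycosylase leaves. With shControl it had normalized counts of 6553, 6140 and 5277, with shDYRK1A of 4909, 4074 and 4243. The groups did not overlap, with a log2 fold change of −0.44 ± 0.14 (SE, adjusted p = 0.0030), and the adjusted p was 0.057 without shControl 1A. By CPM the groups overlapped at 125 to 138 CPM, and the fold change was −0.04 ± 0.04 (SE, 95% interval −0.13 to 0.06, adjusted p = 0.49). The fall of APEX1 was thus about that of the median gene.

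XRCC1 (ENSG00000073050, chromosome 19, 43543040 to 43580473, minus strand), the scaffold that holds the enzymes at a nick, went from normalized counts of 2032, 2295 and 1823 with shControl to 1317, 1172 and 1198 with shDYRK1A. The groups were well separated, and the shDYRK1A mean was 60.0% of the shControl mean. Its log2 fold change was −0.74 ± 0.15 (SE, adjusted p = 5.1e-06), or −0.65 without shControl 1B, which is inside the fold threshold. The TMM value was −0.33 ± 0.06 (SE, adjusted p = 0.00076), from 42.7, 48.3 and 45.7 CPM to 35.1, 38.1 and 35.4 CPM. Of its exon bases 6.48% are shared with a gene on the same strand (L34079.1) and 17.5% lie opposite other genes.

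Of the 14 genes of base excision after the glycosylase that passed the filter, 13 were lower with the spike-in and 0 higher, at an adjusted or unadjusted p below 0.05 (median log2 fold change −0.57), against 63.4% of all genes tested that were lower; APLF was under the filter. POLE3, an accessory subunit of polymerase epsilon, had the lowest value (−1.01 ± 0.14, adjusted p = 2.3e-11) and POLE4, its partner in that polymerase, the highest (−0.20 ± 0.16, adjusted p = 0.27). LIG3, the ligase bound to XRCC1 (−0.74 ± 0.15, adjusted p = 7.0e-06), and the flap nuclease FEN1 (−0.72 ± 0.14, adjusted p = 1.3e-06) were past the fold threshold. On the TMM scale 7 of the 14 were lower, against 28.6% of genes tested, and 0 higher, POLE4, at 0.21 (adjusted p = 0.051), being the 1 gene higher by the unadjusted p.

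PARP1 (ENSG00000143799, chromosome 1, 226360691 to 226408079, minus strand), which binds the nick and builds poly(ADP-ribose) chains there, was the most counted of the 8. The libraries held 16150, 15594 and 13490 normalized counts with shControl, and 10061, 8228 and 9154 with shDYRK1A. The groups were far apart, with 13490 as the lowest shControl value and 10061 as the highest shDYRK1A value. The log2 fold change was −0.72 ± 0.13 (SE, adjusted p = 6.2e-07), and −0.32 ± 0.04 (SE, adjusted p = 4.6e-05) relative to all human genes. The spike-in value came inside the fold threshold, still past the test, without shDYRK1A 1B (−0.65), shControl 1A (−0.67) or shControl 1B (−0.696). In CPM the libraries of a group lay close together, at 328 to 339 in shControl and 267 to 270 in shDYRK1A. PARP2, the other enzyme that answers strand breaks in this way, also fell (−0.67 ± 0.15, adjusted p = 6.1e-05; −0.26 relative to all human genes, adjusted p = 0.0043). Of the 6 genes listed as poly(ADP-ribose) enzymes, 4 were lower and 0 higher with the spike-in, and 2 lower and 1 higher by TMM, against 63.4%, 1.08%, 28.6% and 27.3% of genes tested. PARP3 had the only positive fold change of the 56 repair genes tested with the spike-in, at 0.09 ± 0.15 (adjusted p = 0.60), and rose by 0.49 ± 0.06 on the log2 scale (adjusted p = 5.5e-05) relative to all human genes.

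**Figure D3:**
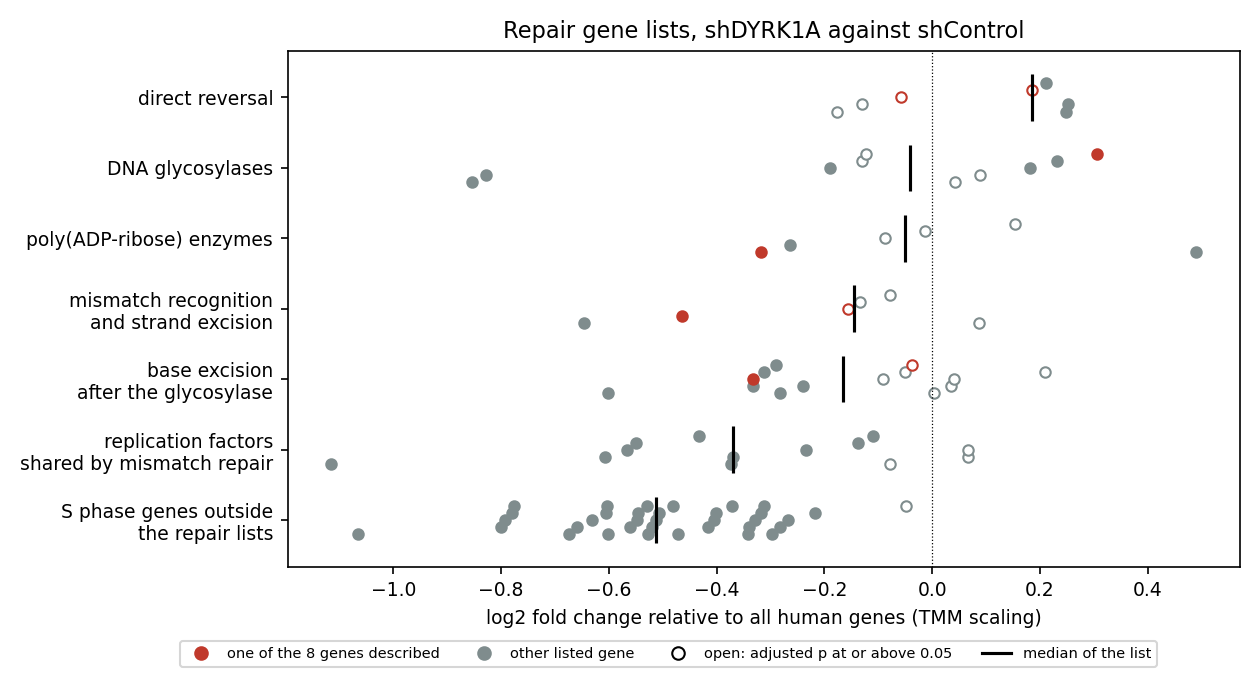
Log2 fold changes relative to all human genes (TMM scaling) for each listed gene past the filter, 1 point a gene, red for the 8 genes described and grey for others, open where the adjusted p was 0.05 or above, with a bar at the median of each list. The medians run from 0.19 for direct reversal to −0.37 for the replication factors and −0.51 for S phase genes outside the repair lists.

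Over all 6 repair lists together, 56 of 59 genes passed the filter. With the spike-in 44 were lower and 0 higher (0 also at an unadjusted p below 0.05 and by DESeq2), 16 of them beyond the fold threshold, and their median log2 fold change was −0.53 against −0.40 for all genes tested. The shares of all genes tested were 63.4% lower, 1.08% higher and 14.3% lower beyond the fold threshold. With TMM scaling 24 were lower and 7 higher, where the shares of all genes were 28.6% and 27.3%, with a median of −0.13 against 0.00. The lists were chosen with earlier results of these libraries known, so these counts are descriptions.

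Ratios of raw counts within a library carry no size factor, so they do not depend on the choice of scale. The ratios are not corrected for gene length, so their levels do not give the relative number of transcripts. Each was tested with a two-sided exact permutation test, which cannot give a p below 0.1 for 3 libraries against 3; over 6 ratios the smallest adjusted value was 0.15, so that none could pass 0.05. The ratio of MGMT to MSH6 was 0.114 in shControl and 0.178 in shDYRK1A as geometric means, 1.57-fold higher, with a log2 difference of 0.65 ± 0.14 (SE, n = 3 per group, exact p = 0.1). Every shDYRK1A library was above every shControl library, and shDYRK1A 1B was highest. MPG to APEX1 rose in the same way by 0.34 ± 0.08 (exact p = 0.1), without overlap. MSH6 to MSH3, the ratio between alternative subunits for mismatches and for larger loops, went from 6.61 to 5.26, a log2 difference of −0.33 ± 0.04 (exact p = 0.1), and the spread of the shDYRK1A libraries was small (SD 0.02). ALKBH2 to ALKBH3 moved by −0.31 ± 0.07 (exact p = 0.1), also without overlap. XRCC1 to LIG3 differed by 0.00 ± 0.09 (exact p = 1) and PARP1 to PARP2 by −0.05 ± 0.05 (exact p = 0.4), and their groups overlapped. The lack of a call does not show that these last pairs kept the same ratio.

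**Figure D4:**
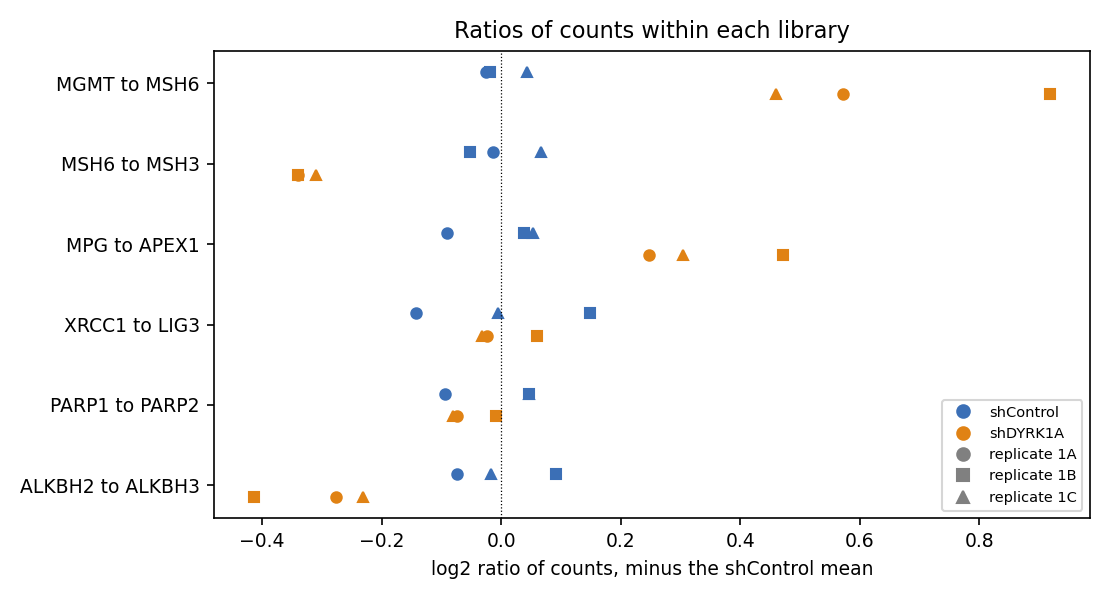
Log2 ratio of raw counts within each library, less the shControl mean of that ratio, for 6 pairs of repair genes, blue for shControl and orange for shDYRK1A with the shape giving the replicate letter. The shDYRK1A points of MGMT to MSH6 lie farthest to the right (mean 0.65), those of MSH6 to MSH3 lie together on the left (mean −0.33), and those of XRCC1 to LIG3 straddle 0.

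Compared per length, the 8 genes spanned a range of about an order of magnitude in shControl. As normalized counts per kilobase of merged exon, APEX1 was highest at 3176 ± 345 (SD, n = 3), then PARP1 at 2103 ± 196, MPG at 1366 ± 100, MSH6 at 788 ± 76.9 and XRCC1 at 593 ± 68.4, none of which overlapped its neighbour in this order. ALKBH2 (310 ± 31.8), PMS2 (306 ± 36.2) and MGMT (276 ± 20.1) came last and overlapped their neighbours, so their order is not set by these libraries. MGMT stood above 38.0% of 9693 tested genes with a length and APEX1 above 94.5%. In shDYRK1A the values per kilobase were 2338 for APEX1, 1276 for PARP1, 1273 for MPG, 433 for MSH6, 355 for XRCC1, 237 for MGMT, 225 for ALKBH2 and 208 for PMS2, so PARP1 and MPG came level. With the length of the longest transcript in place of merged exons, PARP1 (3810) stood above APEX1 (3322) and MGMT (558) above PMS2 (422), and the other places were kept. The annotated MSH6 gene starts at 47695530, upstream of the promoter window printed above, and holds 10993 bases of exon. Its value per kilobase depends on that annotation, and which of its exons T98G cells use was not tested.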

How the data were processed

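The members and gene lists were chosen with earlier results of these data known. The deposited raw counts, 1 table per library, came from stranded paired-end reads and, per the labels, STAR on hg38, with dm3 for the fly cells; the aligner version, the annotation and the strand setting of the counter are not given in the sources used here. The deposited normalized signal of 23026 genes is the raw counts divided by 1 size factor per library, which the authors took from fly reads, and those factors (0.821 to 1.21) were used here. A table of the authors' own comparison (fold changes, errors and p-values) was not used. Summary lines stayed out of library sizes: 8.44 to 15.65% of reads had not mapped, 2.26 to 2.49% mapped to several places, 3.66 to 4.81% fell outside annotated features and 3.42 to 3.59% in more than 1 gene. Per-sample columns matched to no sample numbered 0.

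Genes with a mean above 10 CPM (9697) entered the quasi-likelihood test of edgeR 4.0.16 in R 4.3.3 (robust fit), shDYRK1A against shControl, 3 libraries each, without covariates. P-values were adjusted by Benjamini-Hochberg over all 9697 genes; passing means an adjusted p below 0.05, and the fold threshold was 0.7 on the log2 scale. The standard error is the fold change over the square root of F. The same fit with TMM factors over human genes gave differences relative to all human genes. Ratios used log2 of counts plus 0.5. Coordinates are those of the normalized table; 95.8% of its genes had the coordinates of GENCODE 29, whose exons gave lengths and overlaps. Genes named were the 8, DYRK1A, the ratio partners, the extremes of each list and genes past the fold threshold, and the 5 genes correlated best with MGMT. Of the genes this rule names, 3 are not reported here, and 2 of them, with their ratios, were left out of the lists and the counts over them. On data simulated for this comparison, with 9697 genes of which 200 changed, 100% of the changed genes were recovered and 7 unchanged genes passed. Recovery of fold changes as small as those of the 8 genes, at the spread of these libraries, was not tested. Alternatives were median-of-ratios scaling, DESeq2 1.42.0, edgeR's filterByExpr (17530 genes), genes with more than 1 count (29362), a block on the letter of the replicate, leaving out 1 library at a time, and longest transcript lengths; the block and the left-out libraries on the TMM scale were added after seeing the data.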

Additional observations from a re-analysis of the deposited data

How the results depend on the processing

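With TMM and with median-of-ratios scaling, 3 and 3 of the 8 repair genes were lower, 1 and 1 higher, and 0 and 0 lower beyond the fold threshold; of the repair lists 24 and 23 genes were lower, 7 and 8 higher, and 3 and 3 lower beyond the fold threshold. Over all genes these scalings gave 2769 and 2719 lower, 2652 and 2709 higher, 187 and 184 lower beyond the fold threshold and 121 and 125 higher beyond it, in place of 6145, 105, 1386 and 27. By their construction they set the median gene near 0. The log2 fold changes turned positive for MGMT (0.19 and 0.19), MPG (0.31 and 0.31) and ALKBH3 (0.25 and 0.25), and no longer passed for PMS2 (−0.16 and −0.15), APEX1 (−0.038 and −0.035) and ALKBH2 (−0.058 and −0.055). With filterByExpr and with no filter beyond 1 count, more genes being tested, 346 and 331 genes were higher, 2492 and 2523 lower beyond the fold threshold and 229 and 244 higher beyond it. Set against the spike-in fit, the 8 repair genes and DYRK1A kept direction and side of the threshold in 94 of 108 values. These values include those from TMM and median-of-ratios scaling, which are not on the spike-in scale. Of the rest, 10 no longer passed and 4 reversed. The reversals were those of MGMT and MPG under TMM and median-of-ratios scaling.

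With 1 library left out, the repair genes lower beyond the fold threshold numbered 1 (without shControl 1B) to 3. All genes lower ranged from 4049 (without shControl 1A) to 7552, lower beyond the fold threshold from 908 (without shDYRK1A 1B) to 2093 (without shControl 1C; 2083 without shDYRK1A 1A), higher from 69 (without shDYRK1A 1C) to 114, and higher beyond it from 16 (without shControl 1C) to 32. APEX1 ranged from −0.53 to −0.37 and ALKBH2 from −0.54 to −0.40. Relative to all human genes MGMT ranged from 0.094 to 0.25 and PMS2 from −0.20 to −0.089, both past the test without shDYRK1A 1C, and 1 to 2 of the 8 genes were higher. The causes were not tested.

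The replicate letters pair no samples by the labels. Libraries of the same letter correlated at 0.15, 0.07 and 0.13 in their deviations from the group means, and each correlated best with its own letter, which is a hint from the data only. With the replicate block the counts were 6 lower, 0 higher and 3 beyond the fold threshold of the 8 genes, and 5911 lower of all genes, and it changed no other call on the spike-in scale. Relative to all human genes the block took PMS2 past the test (−0.16, adjusted p = 0.045), for 4 lower genes in place of 3.

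The least counted of the 8 genes had over 500 reads in each library, and the part of depth in the calls was not tested. With 3 libraries a group the ratios cannot reach an exact p below 0.1.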
